A study of Mus musculus with 12 samples.

Results

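The genes described here are 36 antiviral genes that cells switch on in response to type I interferon, followed in the small intestine of mice after allogeneic hematopoietic cell transplantation. They were taken from a fixed list of symbols, and a gene counted as measured when a probe set of the array named it and no other gene. In all, 33 of the 36 were measured, of 21408 genes with such a probe set. Oas1a and Ifi27l2a were named only together with another gene on a probe set, and Ifi44 was not analysed here.

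Wild-type BALB/c recipients had received total body irradiation followed by bone marrow cells and T cells from C57BL/6N donors, an allogeneic transplant in which donor T cells can attack host tissue (graft-versus-host disease). Of these, 6 mice were given tauroursodeoxycholic acid (TUDCA, a conjugated bile acid used as a chemical chaperone) at 200 mg/kg by daily intraperitoneal injection, and 6 were given the same volume of vehicle. All samples were taken on day 14 after transplantation, so both groups carry the irradiation and the graft, and there was no group without them. RNA of the whole tissue was hybridised to 1 Affymetrix array per sample and deposited as log2 values. Host and donor transcripts were not told apart.

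Type I interferons bind a receptor made of IFNAR1 and IFNAR2, whose kinases JAK1 and TYK2 phosphorylate STAT proteins. STAT2 and IRF9 are subunits of the complex ISGF3, which binds the interferon-stimulated response element (ISRE) in promoters. Interferon gamma acts at a different element (GAS), and many genes answer both interferons as well as type III interferon, which acts on the intestinal epithelium. In the gut the induced genes restrict enteric viruses, and the same pathway is active in inflamed mucosa.

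In TUDCA-treated intestine, 6 of the 33 measured genes were lower than in vehicle-treated intestine and none was higher (18.2% lower). These were Ifit2, Zbp1, Oasl2, Parp14, Sp100 and Parp9, in order of size, with log2 differences (TUDCA minus vehicle) from -1.03 to -0.45. Over all 23991 probe sets, 1.52% were lower and 1% higher by the same rule, an adjusted p below 0.05 in limma with a term for the sample-number range described below. The median log2 difference of the 33 genes was -0.26, against 0.01 over all probe sets, and 28 of the 33 were negative, against 46.7% of all probe sets. In the whole tissue, fewer cells of a type and less RNA per cell cannot be told apart. Markers of T and NK cells moved with the treatment as well (6 of 18 fell, and 3 without the number range described below), and their part in the antiviral values was not tested.

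The count of genes that fell depended on single arrays and on a term of the fit. On the array of TUDCA replicate 6 the antiviral genes were high, and without it 13 of the 33 were lower and none higher, where 1.49% of all probe sets were lower. Without TUDCA replicate 2 the count was 3. Every array was omitted in turn, but TUDCA replicate 6 is named here and below because these same genes were high on it. Results without it therefore describe the values and add no support. The samples also carry numbers in 2 separate ranges, a low range below 100 and a high range above it, and the labels do not explain them. The low range holds vehicle replicates 1 to 4 and TUDCA replicates 1 and 2, and the high range holds the other 2 vehicle and 4 TUDCA arrays. Without a term for the number range none of the 33 passed, while 1.29% of all probe sets were lower. At an unadjusted p below 0.05, that fit had 13 of the 33 lower and 1 higher. Of all 23991 probe sets, it had 1737 lower and 1698 higher. The fit with the range had 14 of the 33 lower and 1 higher, and 1642 lower and 1738 higher of all probe sets.

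**Figure D1:**
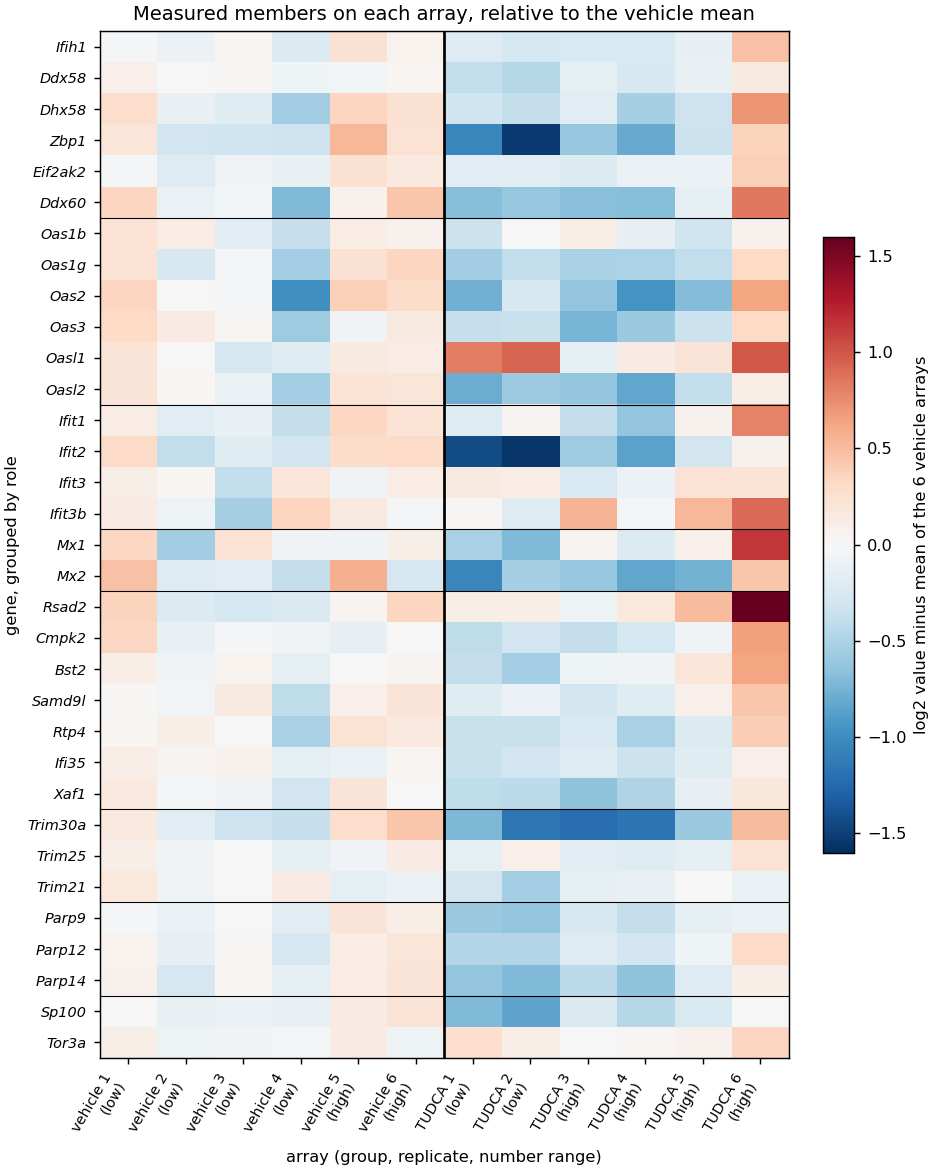
Log2 value of each of the 33 measured genes on each of the 12 arrays, minus the mean of the 6 vehicle arrays (colour, from -1.6 to 1.6), with genes in rows grouped by role and arrays in columns labelled by group, replicate and number range (low or high). TUDCA replicates 1 to 4 are mostly blue, the column of TUDCA replicate 6 is mostly red, and the 5 rows with a positive fitted difference are Oasl1, Rsad2, Ifit3b, Tor3a and Ifit3.

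To show what the promoters of these genes hold, windows of 300 bases (250 before to 50 after the annotated start) were taken from RefSeq, build GRCm38.p6, for the 23 measured genes that matched. Dhx58, Zbp1, Oas1b, Oas2, Mx1, Mx2, Rtp4, Parp9, Parp14 and Tor3a were not among them. The ISRE core was searched as GAAANNGAAA on both strands, and the GAS element as TTCNNNGAA, which reads the same on both strands. An ISRE match was present in 13 of the 23 genes (56.5%), against 3.99% of 27025 genes in the same table. A GAS match was present in 4 (17.4%), against 9.55%. Of the 6 genes that fell, Oasl2, Ifit2 and Sp100 had a window. None of their windows held the ISRE letters, and Ifit2 held the GAS letters. An element with other letters or outside the window would be missed, so the absence of a match does not show that a gene lacks an ISRE. Zbp1, Parp9 and Parp14, which also fell, could not be searched.

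The stretches below are shown to set Ifit2, which fell, beside its family neighbours and other antiviral genes, which were not called. They are a selection and do not stand for all matches. Trim30a (-0.87, passing without TUDCA replicate 6) and Ddx60 (-0.47) were not called and also held ISRE matches. Eif2ak2, Bst2 and Ifi35 were not called and held a GAS match. Ifit1 (chr19:34640765-34640833, plus strand), Ifit3 (chr19:34583353-34583436, plus strand) and Ifit3b (chr19:34607749-34607832, plus strand) each held a pair of ISRE matches, and the 84 bases of Ifit3 and Ifit3b were identical. Ifit2 (chr19:34550444-34550481, plus strand) is shown at its GAS match. Rsad2 (chr12:26456543-26456592, minus strand), Oas3 (chr5:120777705-120777754, minus strand) and Oas1g (chr5:120887614-120887651, minus strand, overlapping matches) are the others. Each is written 5′ to 3′ in the direction of its gene, with the matched bases in capitals. A match describes the sequence and is not evidence of binding.
Ifit1: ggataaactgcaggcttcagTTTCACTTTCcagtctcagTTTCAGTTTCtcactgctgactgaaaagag
Ifit3: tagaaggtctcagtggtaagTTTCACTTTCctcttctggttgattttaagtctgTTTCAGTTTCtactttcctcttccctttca
Ifit3b: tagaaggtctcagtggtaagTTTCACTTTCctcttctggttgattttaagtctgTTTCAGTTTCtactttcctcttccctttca
Ifit2: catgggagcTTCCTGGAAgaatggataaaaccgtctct
Rsad2: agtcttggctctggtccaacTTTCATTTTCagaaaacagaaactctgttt
Oas3: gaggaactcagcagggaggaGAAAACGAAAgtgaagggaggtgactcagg
Oas1g: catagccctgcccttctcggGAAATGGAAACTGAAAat

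Among the 6 sensors of foreign nucleic acid, Zbp1 fell and the others did not pass the test. Zbp1, a sensor of left-handed (Z-form) nucleic acid that can trigger necroptosis, ranged from 8.59 to 10.48 under TUDCA (median 9.41) and from 9.79 to 10.66 under vehicle (median 10.07). All TUDCA arrays but replicate 6 lay below every vehicle array, and TUDCA replicate 6 lay inside the vehicle range. The log2 difference was -0.91 ± 0.18 (SE, n = 6 per group, adjusted p = 0.0161), a level 1.88-fold higher under vehicle. It was -1.09 within the low number range and -0.73 within the high range. The call ended without TUDCA replicate 2 (adjusted p = 0.0784) and without the number range (adjusted p = 0.218).

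The RNA helicases of the RIG-I family lay closer together. Ifih1, which encodes MDA5, a detector of long double-stranded RNA, ranged from 9.93 to 10.68 under TUDCA (median 9.99) and from 9.999 to 10.46 under vehicle (median 10.22), a difference of -0.18 ± 0.11 (SE, adjusted p = 0.512). Ddx58, which encodes RIG-I, a detector of RNA with a 5′ triphosphate, had medians of 8.88 and 9.08 and a difference of -0.26 ± 0.08 (SE, adjusted p = 0.145). Its vehicle arrays spanned only 9.005 to 9.16, and every TUDCA array except replicate 6, at 9.22, lay below them. Dhx58, the regulator LGP2 that lacks the signalling domain of the other helicases, was at -0.29 ± 0.19 (SE, adjusted p = 0.539). Ddx60, a helicase proposed as a cofactor of RIG-I, was at -0.47 ± 0.24 (SE, adjusted p = 0.414). Eif2ak2, the kinase PKR that stops translation on double-stranded RNA, was at -0.14 ± 0.09 (SE, adjusted p = 0.562). The differences of all 6 sensors were negative. Without TUDCA replicate 6, Ddx58 passed as well as Zbp1 (adjusted p = 0.0314), while Ifih1 (adjusted p = 0.0660) and Ddx60 (adjusted p = 0.0701) missed the threshold.

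In the 2′,5′-oligoadenylate synthetase family, Oasl2 fell, and its chromosomal neighbour Oasl1 had the largest positive difference of the 33 genes. The enzymes of this family sense double-stranded RNA and make the second messenger that activates RNase L. The OAS-like proteins carry ubiquitin-like domains, and OASL1 of the mouse is known as an inhibitor of IRF7 translation. Oasl2 ranged from 9.17 to 10.10 under TUDCA (median 9.39) and from 9.46 to 10.21 under vehicle (median 10.11). Vehicle replicate 4 was the lowest vehicle array, at 9.46, and TUDCA replicate 6 the highest TUDCA array, so the groups overlapped. The difference was -0.61 ± 0.15 (SE, n = 6 per group, adjusted p = 0.0472), 1.53-fold higher under vehicle. This call is close to the threshold. When 1 array was omitted it remained without TUDCA replicate 6 or vehicle replicate 4, and ended without any 1 of the other 10 arrays (adjusted p up to 0.162). It also ended without the number range (adjusted p = 0.111), after renewed quantile normalisation (0.0620) or centring of the arrays (0.0519), and with the variance trend left out (0.0667) or robust eBayes (0.0716).

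Oasl1 ranged from 8.86 to 10.01 under TUDCA (median 9.52) and from 8.74 to 9.22 under vehicle (median 9.07). TUDCA replicates 1, 2 and 6 lay above every vehicle array, at 9.82, 9.94 and 10.01. TUDCA replicate 5, at 9.222, was barely above the highest vehicle array, at 9.221, and TUDCA replicates 3 and 4 lay within the vehicle range. The difference of 0.55 ± 0.19 (SE, adjusted p = 0.164) did not pass. Within the low range, which holds 2 TUDCA and 4 vehicle arrays, it was 0.94, and within the high range it was 0.17. Oasl1 passed when the low range was fitted alone (limma, adjusted p = 0.00758), the only 1 of 25 fits that called it. The difference between the ranges was not called by the interaction term of limma (adjusted p = 0.607). Subtracting Oasl2 from Oasl1 on each array gave values from -0.50 to 0.62 under TUDCA and from -1.16 to -0.65 under vehicle, with no overlap. Of 6 such pairs examined, the other 5 overlapped (Rsad2 and Cmpk2, Mx1 and Mx2, Ifit1 and Ifit2, Parp9 and Parp14, and Oas2 and Oas3). The pair of Oasl1 and Oasl2 was singled out after its values had been seen, so the separation is a description with no test.

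Of the other OAS genes, Oas1g ranged from 9.53 to 10.40 under TUDCA (median 9.63) and from 9.53 to 10.43 under vehicle (median 10.19). The groups spanned the same range, with 5 TUDCA arrays in its lower part, and the difference was -0.45 ± 0.16 (SE, adjusted p = 0.184, and 0.0449 without TUDCA replicate 6). Oas2 was at -0.55 ± 0.27 (SE, adjusted p = 0.381), with vehicle replicate 4 at 7.29 while the other vehicle arrays lay between 8.23 and 8.65. Oas3, the long synthetase with repeated domains, was at -0.36 ± 0.18 (SE, adjusted p = 0.381). Oas1b, whose product is truncated in common laboratory strains, was at -0.15 ± 0.12 (SE, adjusted p = 0.646). Close copies in the Oas1 cluster may share probes, so single values there are uncertain.

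Of the 4 IFIT genes, which lie side by side on chromosome 19 and encode tetratricopeptide proteins that bind viral RNA or translation factors, Ifit2 fell and the others did not. Ifit2, whose product is linked to translation block and apoptosis, ranged from 4.99 to 6.61 under TUDCA (median 5.84) and from 6.15 to 6.86 under vehicle (median 6.60). TUDCA replicates 1 and 2 were the lowest arrays, at 5.12 and 4.99, and TUDCA replicates 5 and 6 reached into the vehicle range. The difference was -1.03 ± 0.17 (SE, n = 6 per group, adjusted p = 0.00531), 2.04-fold higher under vehicle, with -1.34 in the low and -0.71 in the high number range. It passed whichever array was left out (adjusted p up to 0.0337) and missed the threshold without the number range (adjusted p = 0.132).

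Ifit1, which binds RNA caps that lack host methylation, ranged from 9.35 to 10.78 under TUDCA (median 9.90) and from 9.60 to 10.32 under vehicle (median 9.98). Its difference was -0.13 ± 0.20 (SE, 95% interval -0.55 to 0.29, adjusted p = 0.835). Ifit3, a partner of IFIT1, was at 0.07 ± 0.11 (SE, 95% interval -0.17 to 0.32, adjusted p = 0.846). Ifit3b, its near-identical copy, ranged from 3.98 to 5.08 under TUDCA (median 4.45) and from 3.65 to 4.52 under vehicle (median 4.24), a difference of 0.18 ± 0.18 (SE, adjusted p = 0.720). The 95% interval of Ifit2, from -1.40 to -0.66, lay below those of Ifit1 and Ifit3, though the difference between the genes was not tested. Ifit1, Ifit3 and Ifit3b are the members shown above with paired ISRE letters. Values of Ifit3 and Ifit3b may share signal if their transcripts are alike, but only their promoter stretches were compared here.

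Neither Mx gene passed the test. Mx proteins are dynamin-like GTPases that trap viral nucleocapsids, MX1 in the nucleus and MX2 in the cytoplasm, and most inbred strains carry a defective Mx1. Mx2 ranged from 5.90 to 7.39 under TUDCA (median 6.26) and from 6.57 to 7.51 under vehicle (median 6.75). All TUDCA arrays but replicate 6 lay below every vehicle array, and replicate 6 was near the vehicle maximum. The difference was -0.65 ± 0.23 (SE, adjusted p = 0.193), and -0.79 without that array (adjusted p = 0.0324). Mx1 ranged from 4.66 to 6.50 under TUDCA (median 5.29) and from 4.82 to 5.71 under vehicle (median 5.39), a difference of -0.18 ± 0.24 (SE, adjusted p = 0.799).

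The 7 measured effectors of other kinds also gave no call. Rsad2, which encodes viperin, a radical SAM enzyme that makes a chain-terminating nucleotide, had the largest positive difference among them. It ranged from 7.53 to 9.39 under TUDCA (median 7.74) and from 7.32 to 7.96 under vehicle (median 7.52), with the TUDCA maximum on replicate 6. The difference was 0.30 ± 0.25 (SE, adjusted p = 0.665), and 0.11 without that array (adjusted p = 0.792). Cmpk2, the neighbouring gene for a nucleotide kinase that supplies viperin's substrate, ranged from 9.30 to 10.38 under TUDCA (median 9.42) and from 9.58 to 10.04 under vehicle (median 9.68), a difference of -0.17 ± 0.16 (SE, adjusted p = 0.711).

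Ifi35, which binds other interferon-induced proteins, ranged from 8.90 to 9.34 under TUDCA (median 8.997) and from 9.11 to 9.36 under vehicle (median 9.29). It was at -0.24 ± 0.08 (SE, adjusted p = 0.181), and all TUDCA arrays but replicate 6 lay below every vehicle array. Xaf1, a pro-apoptotic antagonist of XIAP, was at -0.37 ± 0.13 (SE, adjusted p = 0.184). Without TUDCA replicate 6 both passed (adjusted p = 0.0448 for Ifi35 and 0.0456 for Xaf1). Rtp4, a chaperone-like protein that binds viral RNA, was at -0.30 ± 0.14 (SE, adjusted p = 0.361). Bst2 (tetherin, which holds budding virions at the cell surface) was at -0.15 ± 0.14 (SE, adjusted p = 0.688), and Samd9l (an inhibitor of poxvirus translation) at -0.11 ± 0.12 (SE, adjusted p = 0.779).

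The 3 TRIM ubiquitin ligases were not called over all arrays. Trim30a, which dampens signalling from Toll-like receptors, showed the largest difference of any uncalled gene among the 33. It ranged from 5.07 to 6.80 under TUDCA (median 5.34) and from 5.91 to 6.73 under vehicle (median 6.27). TUDCA replicates 1 to 5 lay below every vehicle array, whereas replicate 6, at 6.80, lay above all of them. The difference was -0.87 ± 0.25 (SE, adjusted p = 0.0893), and -1.04 without that array (adjusted p = 0.0044). Trim25, the ligase that activates RIG-I, ranged from 9.34 to 9.76 under TUDCA (median 9.38) and from 9.39 to 9.66 under vehicle (median 9.51), a difference of -0.06 ± 0.09 (SE, adjusted p = 0.804). Trim21, a cytosolic antibody receptor, was at -0.22 ± 0.10 (SE, adjusted p = 0.317).

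Of the 3 PARP genes, which encode ADP-ribosyltransferases or inactive relatives, Parp9 and Parp14 fell. Parp9, which acts with the ligase DTX3L on interferon signalling, ranged from 9.10 to 9.63 under TUDCA (median 9.41) and from 9.55 to 9.92 under vehicle (median 9.71). TUDCA replicates 5 and 6 were just inside the lower end of the vehicle range and the others below it. The difference was -0.45 ± 0.07 (SE, n = 6 per group, adjusted p = 0.00244), 1.37-fold higher under vehicle, with -0.53 in the low and -0.37 in the high range. It passed whichever array was left out (adjusted p up to 0.0166) and missed the threshold without the number range (adjusted p = 0.0877).

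Parp14, a mono-ADP-ribosyltransferase that cooperates with STAT6, ranged from 9.77 to 10.58 under TUDCA (median 9.96) and from 10.21 to 10.68 under vehicle (median 10.53). TUDCA replicates 1 to 4 lay below every vehicle array. The difference was -0.52 ± 0.11 (SE, n = 6 per group, adjusted p = 0.0215), 1.43-fold higher under vehicle. The call ended without TUDCA replicate 1, TUDCA replicate 2 or vehicle replicate 6 (adjusted p up to 0.0877), and without the number range (adjusted p = 0.113). Parp12, which restricts alphaviruses, ranged from 10.41 to 11.20 under TUDCA (median 10.63) and from 10.62 to 11.09 under vehicle (median 10.9). The difference of -0.31 ± 0.10 (SE, adjusted p = 0.137) passed without TUDCA replicate 6 (adjusted p = 0.0125).

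Sp100, a protein of nuclear PML bodies that represses incoming viral DNA, fell. It ranged from 8.54 to 9.38 under TUDCA (median 9.04) and from 9.27 to 9.61 under vehicle (median 9.33). TUDCA replicates 1 to 5 lay below every vehicle array, and replicate 6 lay among the vehicle arrays. The difference was -0.55 ± 0.08 (SE, n = 6 per group, adjusted p = 0.00262), 1.46-fold higher under vehicle, with -0.69 in the low and -0.41 in the high range. It passed whichever array was left out (adjusted p up to 0.0170), but not without the number range (adjusted p = 0.108). A second, dim probe set of Sp100 with a mean of 3.54 was at -0.26 ± 0.12 (SE, adjusted p = 0.352). Tor3a, an ATPase of the endoplasmic reticulum, ranged from 7.58 to 7.93 under TUDCA (median 7.68) and from 7.51 to 7.73 under vehicle (median 7.55), a difference of 0.14 ± 0.08 (SE, adjusted p = 0.478).

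**Figure D2:**
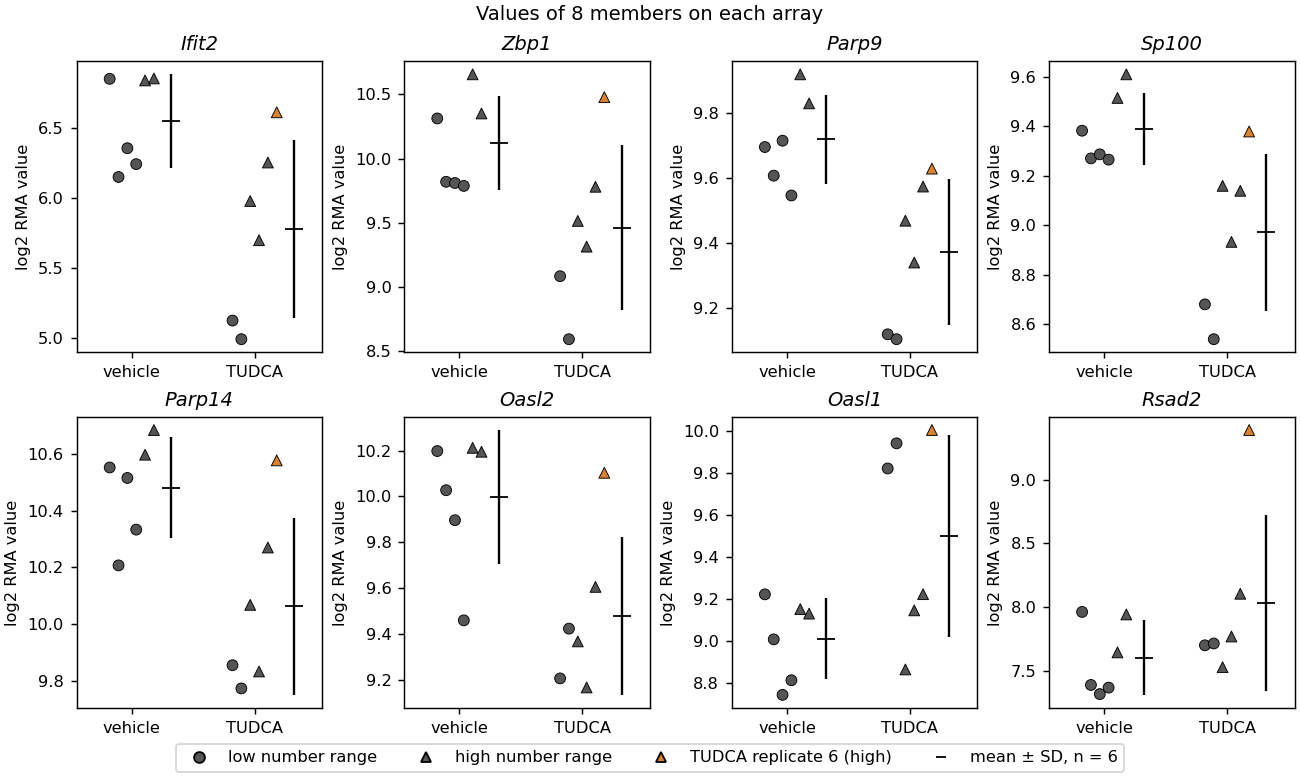
Log2 values on each array of the 6 genes that fell and of Oasl1 and Rsad2, which were added after their values had been seen; circles are arrays of the low and triangles of the high number range, TUDCA replicate 6 is orange, and bars are the mean ± SD of 6 arrays. TUDCA replicate 6 is the highest TUDCA array in all 8 panels, and each axis covers its own gene's range and does not start at 0.

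Over the 33 genes the TUDCA arrays spread more widely than the vehicle arrays. The SD was larger under TUDCA for 30 of the 33 (90.9%), against 51.9% of all probe sets, and its median was 0.33 under TUDCA and 0.22 under vehicle (0.153 and 0.148 over all probe sets). No gene of the 33 had groups that did not overlap. Every TUDCA array lay below every vehicle array for 1.18% of all probe sets, so none among 33 genes is near that share. With TUDCA replicate 6 set aside, the remaining 5 TUDCA arrays lay below every vehicle array for 6 genes (Ddx58, Zbp1, Mx2, Ifi35, Trim30a and Sp100), against 1.45% of all probe sets.

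TUDCA replicate 6 was the highest of the 12 arrays for 20 of the 33 genes (60.6%), against 10.9% of all probe sets. It was above all other TUDCA arrays for 30 of them (90.9%), against 18.3%. Its value exceeded the mean of the other TUDCA arrays by a median of 0.73 log2 units over the 33 genes and by -0.02 over all probe sets. Ranked by this excess among 21408 genes, 14 of the 33 were in the top 100. The excess was 1.63 for Rsad2, 1.49 for Trim30a, 1.40 for Ddx60 and 1.39 for Mx1, and 0.31 for Parp9, 0.12 for Trim21 and 0.19 for Ifit3.

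The mean of the 33 genes relative to vehicle, taken on each array, was -0.40, -0.39, -0.32, -0.40, -0.13 and 0.44 on TUDCA replicates 1 to 6. On vehicle replicates 1 to 6 it was 0.17, -0.11, -0.09, -0.26, 0.14 and 0.14. TUDCA replicates 1 to 4 were thus lower than any vehicle array, replicate 5 lay within the vehicle range, and replicate 6 was higher than any vehicle array. With each TUDCA array set against the vehicle arrays of its own number range, 6 genes lay under the vehicle mean on all 6 TUDCA arrays, and 15 did so on all TUDCA arrays except replicate 6. The 6 were the same genes that passed the test, which used the same values and the same ranges, so the match adds no support. The share over all probe sets was not counted.

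Within each number range most genes were lower under TUDCA. In the low range 28 of 33 differences were negative (median -0.35), and in the high range 25 (median -0.23). Of all 23991 probe sets, 11429 were negative in the low range and 11364 in the high range. A test of whether the treatment difference depended on the range called none of the 33 and 0% of all probe sets. Ddx58, Oasl1, Bst2 and Trim21 were at an unadjusted p below 0.05 there, as were 1843 of all 23991 probe sets. In the fit, values were higher in the high than in the low number range for 30 of the 33 genes, by a median of 0.28. None was called, and 8 were higher at an unadjusted p below 0.05. Of all 23991 probe sets, 11385 were higher in the high range, and 953 were so at an unadjusted p below 0.05. As 4 of the 6 TUDCA arrays and 2 of the 6 vehicle arrays come from the high range, leaving out the term moved the median difference of the 33 genes from -0.26 to -0.20. TUDCA replicate 6 is a high-range array and entered the estimate for the range. The mean of the 33 genes was -0.32, -0.40 and -0.13 on the other high-range TUDCA arrays and -0.40 and -0.39 on the low-range ones. On vehicle arrays it was 0.14 and 0.14 in the high range and from -0.26 to 0.17 in the low range. The meaning of the number ranges is unknown, and nothing beyond these fits was tested.

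The other genes of the pathway were followed by role. Of 110 listed genes 89 were measured, and 11 were lower and none higher (12.4% lower), against 1.52% of all probe sets, with 17 lower without TUDCA replicate 6 and 5 without the number range. The count was 4 without TUDCA replicate 2, 5 without TUDCA replicate 1, 6 without TUDCA replicate 4 or vehicle replicate 1, and 7 without vehicle replicate 2, 4 or 6. None of 19 interferon ligand genes passed. Ifnb1, the main type I interferon of most cell types, had values from 3.12 to 3.70 over the 12 arrays, little above the level of 3.01 under which 5% of all values fell, and a difference of 0.11 ± 0.08 (SE, adjusted p = 0.6005). Ifng, the type II interferon of T and NK cells, had the smallest p of the ligands and was at -0.30 ± 0.10 (SE, adjusted p = 0.160). Values as low as those of Ifnb1 are compressed on the log2 scale, so its result says little.

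None of 6 receptor genes passed. Ifnar1 was at -0.07 ± 0.07 (SE, adjusted p = 0.737) and Ifnar2 at -0.25 ± 0.12 (SE, adjusted p = 0.359). Ifnlr1, a chain of the type III interferon receptor, had the smallest p of this list, at 0.18 ± 0.08 (SE, adjusted p = 0.333).

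Of 9 measured kinases and transcription factors, 3 fell: Stat2, Irf1 and Irf8. Stat2, the ISGF3 subunit specific to type I and type III signalling, ranged from 9.14 to 9.53 under TUDCA (median 9.35) and from 9.54 to 10.05 under vehicle (median 9.68), without overlap. Its difference was -0.46 ± 0.09 (SE, adjusted p = 0.0133, and 0.0306 without the number range). Irf1, a factor induced strongly by interferon gamma, ranged from 9.27 to 9.74 under TUDCA (median 9.50) and from 9.82 to 10.07 under vehicle (median 10.01). These groups too did not overlap, and the difference was -0.50 ± 0.08 (SE, adjusted p = 0.00370, and 0.00605 without the number range). Irf8, a factor of myeloid and plasmacytoid dendritic cells, was at -0.49 ± 0.11 (SE, adjusted p = 0.0235, and 0.0964 without the number range). For Stat2 and Irf1, TUDCA replicate 6, at 9.53 and 9.63, stayed below every vehicle array.

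Irf9, the DNA-binding subunit of ISGF3, did not pass (-0.14 ± 0.07 SE, adjusted p = 0.433). Irf7, the factor that amplifies interferon alpha production, was at -0.63 ± 0.18 (SE, adjusted p = 0.0811). On TUDCA replicate 6 it was at 10.66, against 9.41 to 9.77 on the other TUDCA arrays and 9.87 to 10.67 under vehicle, and it passed without that array (adjusted p = 0.00463).

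Among 9 adaptors and kinases of nucleic acid sensing, 3 fell: the kinase gene Tbk1 (-0.35 ± 0.06 SE, adjusted p = 0.0101), Unc93b1, the carrier of endosomal Toll-like receptors (-0.39 ± 0.07 SE, adjusted p = 0.0124), and Tlr3, the endosomal receptor of double-stranded RNA (-0.34 ± 0.08 SE, adjusted p = 0.0498). Without the number range only Unc93b1 of these passed (adjusted p = 0.0184). Of 7 genes of feedback and of the ubiquitin-like modifier ISG15, Uba7, its activating enzyme, fell (-0.53 ± 0.09 SE, adjusted p = 0.00477), as did Ube2l6, its conjugating enzyme (-0.36 ± 0.09 SE, adjusted p = 0.0422). Without the number range Uba7 passed (adjusted p = 0.00663) and Ube2l6 did not (adjusted p = 0.124). Isg15 itself was at -0.02 ± 0.24 (SE, adjusted p = 0.984), with TUDCA replicate 6 at 9.92 and the other TUDCA arrays from 8.45 to 8.59. Usp18, the ISG15 protease that blocks the receptor, was at -0.33 ± 0.24 (SE, adjusted p = 0.601).

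Of 39 further interferon-induced genes, 3 fell. These were Ifi44l (-0.76 ± 0.17 SE, adjusted p = 0.0265), Znfx1, a helicase that senses RNA at mitochondria (-0.34 ± 0.08 SE, adjusted p = 0.0351), and Lgals3bp, a secreted galectin-binding protein (-0.41 ± 0.10 SE, adjusted p = 0.0485). Ifi44l lay between 3.84 and 5.55 on all arrays, in the lower part of the scale. Without the number range Lgals3bp passed (adjusted p = 0.0288) and the others did not.

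Families of GTPases with many members that answer interferon gamma strongly were compared with the antiviral genes. Not every listed gene need be interferon-induced. Of 10 guanylate-binding protein genes 4 fell and none rose (median difference -0.65), and 1 was lower without the number range (median -0.47), with the smallest p for Gbp8 (-1.25 ± 0.17 SE, adjusted p = 0.00171) and Gbp6 (-0.65 ± 0.12 SE, adjusted p = 0.0106, and 0.132 without the number range). Of 9 immunity-related GTPase genes 4 fell and none rose (median difference -0.62), and 2 were lower without the number range (median -0.39), with the smallest p for Gm5431 (-1.66 ± 0.22 SE, adjusted p = 0.00171) and Irgm2 (-0.65 ± 0.09 SE, adjusted p = 0.00184). The arrays at the extremes of the list means were only in part those of the antiviral genes. The mean of the guanylate-binding proteins relative to vehicle was -0.81 on TUDCA replicate 1, -1.42 on replicate 2 and -0.19 on replicate 6, where the antiviral genes stood at -0.40, -0.39 and 0.44. On the same arrays the immunity-related GTPases stood at -0.68, -1.10 and 0.03. Replicate 6 was their highest TUDCA array, as for the antiviral genes, but lay inside their vehicle range. The mean of the 39 further interferon-induced genes was 0.13 on TUDCA replicate 6, the highest of all arrays. TUDCA replicate 6 was the highest array for 1 of the 10 guanylate-binding protein genes and 2 of the 9 immunity-related GTPase genes. No test of the difference between these lists was made.

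**Figure D3:**
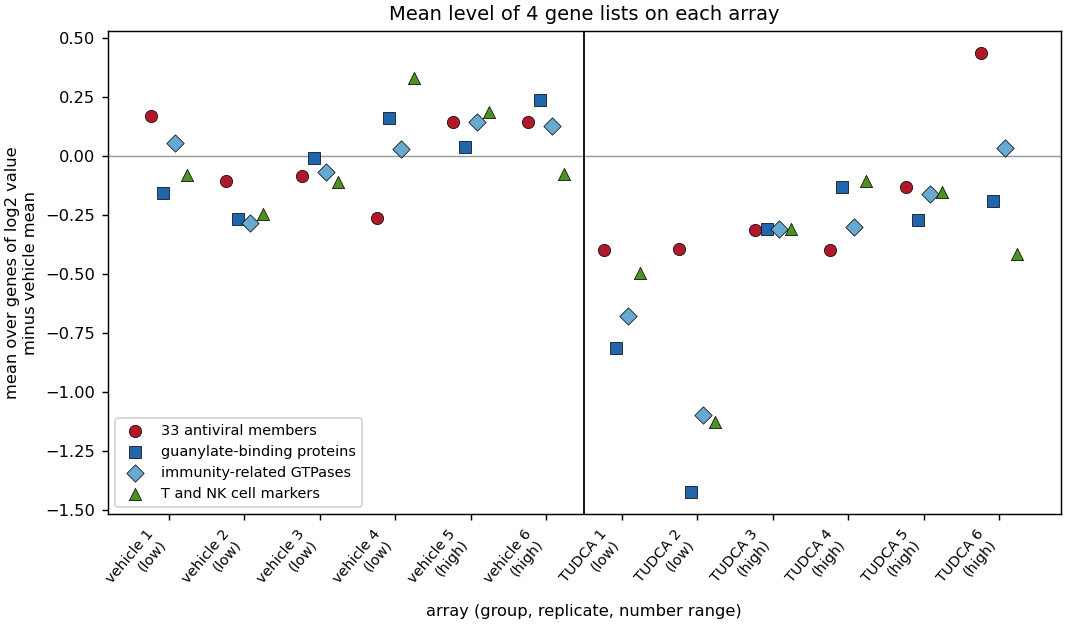
Mean over the genes of a list of the log2 value minus the vehicle mean, on each array, for the 33 antiviral genes (circles), guanylate-binding proteins (squares), immunity-related GTPases (diamonds) and T and NK cell markers (triangles); arrays are labelled by group, replicate and number range. On TUDCA replicate 2 the last 3 lists fall to between -1.42 and -1.10 while the antiviral genes are at -0.39, and on TUDCA replicate 6 the antiviral genes are at 0.44.

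Markers of cell types moved with the treatment in part. Of 18 T and NK cell markers 6 fell and none rose (median difference -0.33), against 3 without the number range (median -0.22). Among them was Cd3e, a chain of the T cell receptor complex (-0.93 ± 0.18 SE, adjusted p = 0.0137). The summed signal of the list ranged from 9.92 to 11.1 log2 units under TUDCA and from 11.0 to 11.7 under vehicle. On TUDCA replicate 6 the mean of these markers was -0.42 relative to vehicle, and that of the macrophage and dendritic cell markers -0.43. Of 17 macrophage and dendritic cell markers 1 fell (Mertk), with sums from 12.02 to 12.6 under TUDCA and from 12.5 to 12.8 under vehicle. Of 9 plasmacytoid dendritic cell markers none fell and Ly6d rose, a gene that other cells also use. Siglech, a defining marker of these cells, was at 4.47 to 4.79 under TUDCA and 4.31 to 4.75 under vehicle. None of 8 B and plasma cell markers was called, and of 12 neutrophil markers Ly6g rose. The part of these cells in the antiviral values was not tested.

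Of 14 markers of absorptive enterocytes, the main cells of the labelled tissue, 3 fell (Slc15a1, Cdhr5 and Anpep) and none rose. Vil1, the brush border protein villin, lay between 12.1 and 12.3 on all arrays, while Lct, the enzyme lactase, lay between 4.86 and 5.99. A description field of the labels names CXCL12-abundant reticular cells, while the source and tissue fields name small intestine. None of 10 markers of reticular cells was called, with a median difference of 0.00. Array medians lay between 5.90 and 5.95 and pairwise correlations between 0.984 and 0.993. RMA makes the medians alike, and such correlations mostly reflect level differences between genes. Neither measure can therefore show whether an array stood apart.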

How the data were processed

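Small intestine RNA from 6 TUDCA-treated and 6 vehicle-treated mice was measured on 12 Affymetrix arrays. The authors deposited log2 values per probe set; the submitters' processing notes name oligo and RMA (background correction, quantile normalisation, summarisation), with no version given in the sources used here. RMA makes array distributions alike, so a shift of all transcripts would not be seen; precision is limited by how many arrays there are. Of 23991 probe sets, 21557 named 1 gene in the platform annotation, 787 several and 1647 none. All entered the fit, and only those naming 1 gene were named. The brightest probe set stood for a gene with several.

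The limma package (3.58.1, run in R 4.3.3) estimated the differences by lmFit and eBayes with trend, with treatment and number range as terms, two-sided, Benjamini-Hochberg over all probe sets, threshold 0.05. The fit was tested on simulated data. The labels identify mice only by sample number, so p-values measure the spread between these samples. Alternatives were a fit without the range, replicate blocks, each range alone, a dimness filter, renewed quantile normalisation, centring, other variance models, array weights, the mean of a gene's probe sets, and omission of each array. Replicate numbers were not taken to pair samples.

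Every measured antiviral gene was named. Group values were given for those past the threshold and, per role, for those with the smallest p, the largest rise and the highest mean. Pathway genes were named if past the threshold, of smallest p in their list, or fixed by name (Ifnb1, Ifng, Ifnar1, Ifnar2, Stat2, Irf7, Irf9, Isg15, Usp18), and 1 further gene is not reported here. The members and lists were chosen with earlier results of these data known.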

Additional observations from a re-analysis of the deposited data

Results flagged for a closer look

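In 16 of 68 groups of 6 arrays tested (each of the 33 genes, and their mean, in both treatment groups), 1 array stood apart: its gap to the nearest other array, as a share of the group's whole range, exceeded the 95% critical value of Dixon's test for 6 values. The nominal rate is about 5% of groups, for normal values from a common population. Each treatment group mixes arrays of the low and the high number range, and the genes are not independent of each other. The share over all probe sets was not counted, so whether these genes exceed the rate of the whole array was not tested.

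TUDCA replicate 6 was the high array in 13 of these. The share of the range was 0.811 for Oas1g (10.40, the next TUDCA array at 9.69), 0.799 for Eif2ak2 (8.81 and 8.33) and 0.795 for Ifih1 (10.68 and 10.09). It was 0.720 for Dhx58 (8.16 and 7.27), 0.690 for Rsad2 (9.39 and 8.11), 0.675 for Rtp4 (9.30 and 8.68) and 0.663 for Cmpk2 (10.38 and 9.66). It was 0.657 for Mx2 (7.39 and 6.41), 0.647 for Ddx60 (10.52 and 9.54) and 0.639 for Trim30a (6.80 and 5.69). The smallest were 0.627 for Oas3 (8.99 and 8.32) and 0.627 for Ifi35 (9.34 and 9.06). For the mean over the 33 genes the share was 0.681 (0.44 relative to vehicle, the next at -0.13).

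Among the vehicle arrays, replicate 4 was the low array for Oas2 (0.693, at 7.29 with the next at 8.23) and for Rtp4 (0.684, at 8.39 with the next at 8.90). Vehicle replicate 1 was the high array for Cmpk2 (0.709, at 10.04 with the next at 9.71).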

How the results depend on the processing

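The count of antiviral genes lower under TUDCA, 6 of 33, depended on the fit. It was 0 without the number range, 0 in the high range alone, 6 in the low range alone, 8 with array weights, and from 3 (without TUDCA replicate 2) to 13 (without TUDCA replicate 6) when 1 array was omitted. Without both TUDCA replicate 6 and the number range, a fit chosen after seeing the data, it was 9. The count of higher genes was 1 in the low range alone (Oasl1) and 0 otherwise. Pathway genes that were lower numbered 5 without the number range, 0 in the high range alone, 7 after renewed quantile normalisation, 7 with eBayes without a trend, and from 4 to 17 with 1 array omitted (4 without TUDCA replicate 2, 17 without TUDCA replicate 6), against 11. The median difference of the antiviral genes ran from -0.35 to -0.20 over these alternatives. Of the 33 genes, 7 had the other sign under 1 or more of them, and none of these was called there. With the replicate block and the number range Ifit1 was at 0.049 and Mx1 at 0.040. In the low range alone Ifit1 was at 0.059 and Ifit3b at -0.061. In the high range alone Mx1 was at 0.24, Bst2 at 0.15, Cmpk2 at 0.055, Trim21 at 0.040 and Ifit3 at -0.0039. Isg15 was at 0.12 without the number range. The cause of these changes was not tested. Deviations of same-numbered TUDCA and vehicle arrays correlated between -0.06 and 0.26, not all above 0.1, so the replicate numbers were not taken as pairing, although 4 of 6 TUDCA arrays correlated best with their own number. With the replicate block the counts were 6 antiviral and 7 pathway genes lower without the number range, and 2 and 1 with it. Dim genes such as Ifnb1, Ifit3b and Ifi44l have compressed differences.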

Other observations

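The genes with the largest excess of TUDCA replicate 6 over the mean of the other TUDCA arrays included several that are not antiviral. Mcpt1, a protease of mucosal mast cells, led with an excess of 2.60 log2 units (7.95, against 4.45 to 6.25 on the other TUDCA arrays and 4.02 to 6.77 under vehicle), and Mcpt2, a related protease, had 2.01 (5.71, against 2.86 to 4.29). Slfn4, an interferon-induced gene of myeloid cells, had 2.43 (9.98, against 7.39 to 7.81, and 6.92 to 8.30 under vehicle). Atf3, a stress-induced transcription factor, had 1.76 (10.44, against 8.17 to 9.04, and 7.95 to 8.54 under vehicle). Rsad2 ranked 7 in this order. Car3, at rank 3, and Retn, at rank 8, varied widely under vehicle as well, from 5.33 to 11.76 and from 6.22 to 10.03. Slfn5, another interferon-induced gene, was at rank 10, followed by Ifit1bl1 and Cxcl11. These genes were picked for their values, and the order has no test.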
